A study of Arabidopsis thaliana with 4 samples.

Results

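The genes described here encode 10 proteins of plant cytokinesis, given by name and locus: the kinesins HIK, TES, POK1, POK2, PAKRP1, PAKRP1L and PAKRP2, the syntaxin KNOLLE (SYP111), the microtubule bundler PLE (MAP65-3) and the microtubule protein EDE1. All 10 were found among the 33977 gene rows and among the 19919 genes that passed the filter on low counts. Messenger RNA was sequenced from 4 individual plants of Arabidopsis thaliana in the Col-0 background, 2 that overexpressed PPD3 (labelled PPD3_OE) and 2 of wild type (labelled Col-0). Both genotypes grew on peat mix at 22 °C under days of 16 h, and each plant was harvested at bolting into liquid nitrogen. The sources used here do not give the promoter behind the overexpression or the number of independent lines, and 1 label speaks of entire plants while another names the rosette. The comparison asks which transcripts differ when PPD3, a protein of the PsbP family, is overexpressed.

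Cytokinesis in plants starts from the phragmoplast, an array of microtubules that forms between the daughter nuclei and widens toward the cell's edge. Vesicles carried along it fuse into the cell plate, the young wall, with the help of the syntaxin KNOLLE. The kinesins HIK and TES switch on a MAP kinase cascade that lets the phragmoplast widen, PAKRP1 and PAKRP1L sit at its midline, and POK1 and POK2 help guide it to the division plane. Most of these transcripts are known to peak in late G2 and mitosis, when MYB3R transcription factors act through the mitosis-specific activator (MSA) element. In a bulk sample, more dividing cells and more RNA in each such cell cannot be told apart.

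Counts assigned to genes ran from 33771093 to 40727172 per library. Levels are given as CPM, counts scaled to a library of 1e+06, or as RPKM, the CPM divided by the kilobases of exon, by which genes are compared with each other. The locus taken as PPD3, AT1G76450, held 113628 and 111903 counts in overexpressor plants 1 and 2, against 3800 and 2460 counts in Col-0 plants 1 and 2, the direction its label gives (log2 fold change 5.14 ± 0.31 SE). Even this locus had an adjusted p of 0.0623 in edgeR with 2 plants per genotype. Green tissue markers were abundant in all 4 libraries (RBCS1A at 11802 and 14207 CPM in the overexpressor and at 9697 and 6589 CPM in Col-0). Of 8 root markers 4 had no count in any library and 3 had at most 10 counts in any, while PYK10 was at 46.5 and 32.2 CPM in the overexpressor and at 44.9 and 45.6 CPM in Col-0.

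In each of the 10 cytokinesis genes the lower overexpressor plant was above the higher Col-0 plant, a pattern shown by 33.9% of all tested genes, while 33% showed the opposite one. Their log2 fold changes, overexpressor over Col-0, ran from 0.47 for TES to 1.18 for HIK with a median of 0.94, beside a median of 0.01 over all tested genes. Of the tested genes, 946 (4.75%) had a log2 fold change above that member median. None of the 10 passed edgeR's quasi-likelihood test at an adjusted p of 0.05 over all genes, where 0% of tested genes were called higher and 0.00502% lower. Limma with voom weights called 0 as well, with 0% of genes called higher. Their unadjusted edgeR p was under 0.05 in 10 of 10, against 16.1% of tested genes on the higher side and 17% on the lower. At an adjusted p of 0.10, edgeR called 9 of the 10 higher, EDE1 being the exception, against 9.56% of tested genes. DESeq2 at an adjusted p of 0.05 called 8 higher, TES and EDE1 being the exceptions. By that rule 8.41% of genes were called higher and 9.72% lower. The 10 genes were chosen with earlier results of these data known, so these counts describe them and are no independent support. With 2 plants per genotype an exact permutation test of a single gene cannot go below a two-sided p of 0.333, and the labels do not say whether the plants came from separate sowings.

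The Col-0 plants differed from each other in these genes. Col-0 plant 1 was above Col-0 plant 2 in 10 of 10, by a median of 1.23-fold, while the median over all tested genes was 1.00-fold. Overexpressor plant 1 was above overexpressor plant 2 in 8 of 10, by a median of 1.12-fold. The gap between genotypes, a median of 1.92-fold between means, was larger than either. Summed over the 10 genes, the level was 259 and 239.7 CPM in overexpressor plants 1 and 2, against 142 and 119 CPM in Col-0 plants 1 and 2.

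**Figure D1:**
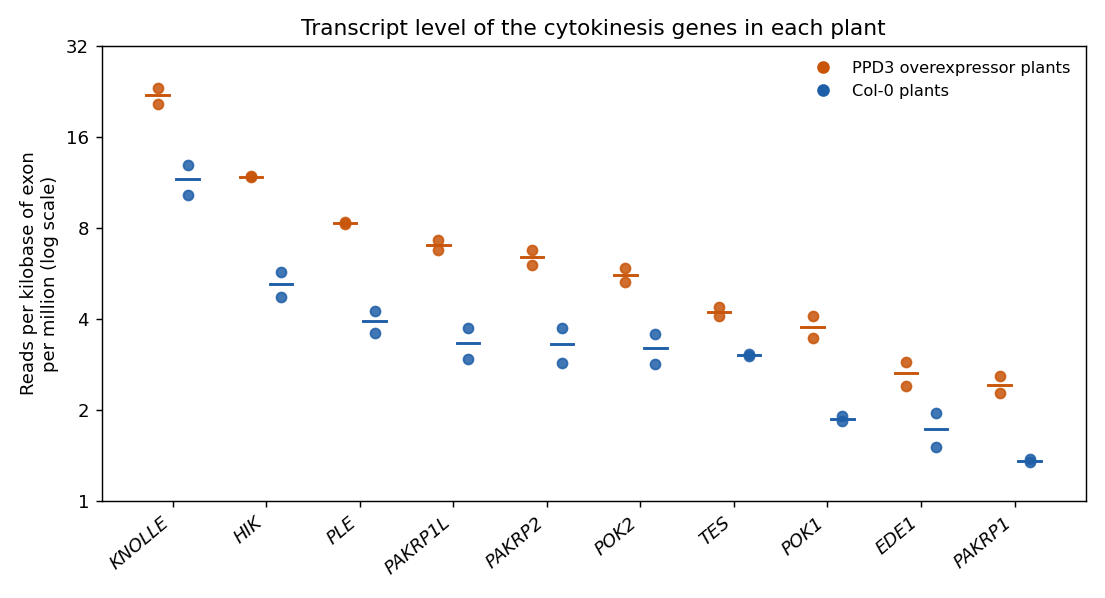
Level of each cytokinesis gene per exon length, in RPKM (log scale), with a point for each plant, bars at the mean of 2 plants, overexpressor in orange and Col-0 in blue. In all 10 genes both orange points lie above both blue points, most narrowly for EDE1 and TES.

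The region around the start of each gene was searched for the MSA core, AACGG on either strand, from 250 bases before to 50 after the annotated start in the RefSeq annotation of TAIR10.1. The core was present in 9 of 10 cytokinesis genes (90%), against 24.7% of 27443 protein-coding nuclear genes, and at least 2 copies were present in 5 of 10 (50%), against 4.89%. Motif matches describe letters and not sites of binding. The 250 bases before the start are shown for 5 genes, 5′ to 3′ on the gene's own strand with matches in capitals: PAKRP1L, which held the most matches, PLE, the paralogs HIK and TES, which differed most in fold change, and POK1, which held none.
PAKRP1L (chr3:8518886-8519135, plus strand): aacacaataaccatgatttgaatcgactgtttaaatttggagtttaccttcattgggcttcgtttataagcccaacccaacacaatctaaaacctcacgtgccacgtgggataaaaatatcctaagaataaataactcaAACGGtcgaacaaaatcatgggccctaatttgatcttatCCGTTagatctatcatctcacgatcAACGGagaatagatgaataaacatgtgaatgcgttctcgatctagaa
PLE (chr5:20964538-20964787, minus strand): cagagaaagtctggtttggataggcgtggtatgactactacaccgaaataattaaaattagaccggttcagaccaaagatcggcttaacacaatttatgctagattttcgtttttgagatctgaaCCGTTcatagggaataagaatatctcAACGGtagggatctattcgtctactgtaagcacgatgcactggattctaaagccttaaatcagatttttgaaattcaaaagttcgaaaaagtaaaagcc
HIK (chr1:6324379-6324628, minus strand): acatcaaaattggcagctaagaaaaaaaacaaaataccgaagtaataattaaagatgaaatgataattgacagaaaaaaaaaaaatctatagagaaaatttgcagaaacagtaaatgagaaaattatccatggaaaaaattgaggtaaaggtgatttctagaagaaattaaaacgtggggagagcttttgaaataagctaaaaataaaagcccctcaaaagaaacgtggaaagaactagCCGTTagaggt
TES (chr3:15190536-15190785, plus strand): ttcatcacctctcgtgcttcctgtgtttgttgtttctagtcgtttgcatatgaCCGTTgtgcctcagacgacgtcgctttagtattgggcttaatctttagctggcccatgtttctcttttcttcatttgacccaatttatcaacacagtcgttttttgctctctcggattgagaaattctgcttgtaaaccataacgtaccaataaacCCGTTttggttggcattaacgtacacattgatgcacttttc
POK1 (chr3:5935630-5935879, plus strand): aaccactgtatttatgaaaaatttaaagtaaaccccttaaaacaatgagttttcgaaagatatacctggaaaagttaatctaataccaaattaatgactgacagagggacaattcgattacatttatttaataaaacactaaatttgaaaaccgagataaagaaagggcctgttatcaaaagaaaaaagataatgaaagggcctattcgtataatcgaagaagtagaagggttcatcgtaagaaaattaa
PAKRP1L held 4 matches in its window, at bases -111, -72, -47 and 20 relative to the start. PLE held 3 matches, the 2 shown at -125 and -99 lying close together on opposite strands. HIK held 1 match, 11 bases before its start, and TES held 2, at -197 and -41. The log2 fold change of HIK was the highest of the 10 genes and that of TES the lowest. KNOLLE, not shown, held 3 matches at -12, 13 and 37, and PAKRP2 and EDE1 held theirs after the start. POK1, with no match, had the fourth highest log2 fold change of the set. Whether matches and fold changes are related was not tested.

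**Figure D2:**
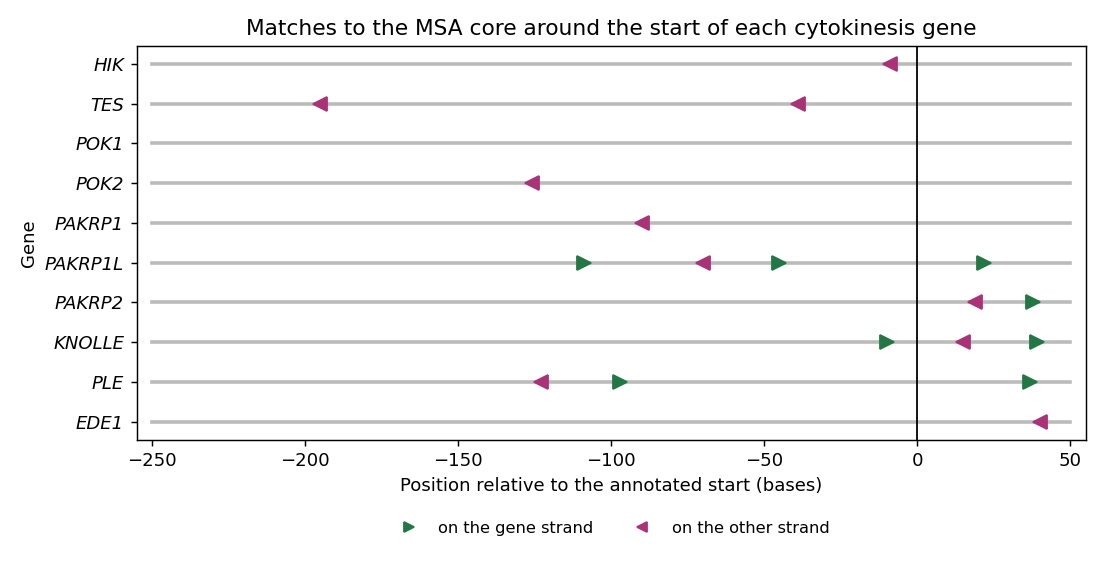
Position of each match to the MSA core (horizontal axis, bases from the annotated start, from 250 before to 50 after) for the 10 genes, with arrowheads giving the strand. PAKRP1L carries 4 matches and POK1 none, and 7 of the 10 genes carry a match before the start.

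Among the 10 lists of related genes the share of promoters with the core was not tested for differences and is given as a count. It was 3 of 4 (75%) for MYB3R factors, 8 of 12 (66.7%) for B-type cyclins and B-type CDKs and 8 of 13 (61.5%) for spindle and checkpoint genes. Cell plate membrane and wall genes held it in 8 of 15 (53.3%), with a median log2 fold change of -0.04. It was found in 3 of 7 (42.9%) both for the list that holds the kinase pathway of HIK and TES and for SNARE partners of KNOLLE. Their median log2 fold changes were 0.75 and -0.18. For division plane genes it was 3 of 13 (23.1%), for phragmoplast microtubule genes 2 of 15 (13.3%) and for QWRF relatives of EDE1 0 of 3. For the MCM and PCNA genes of DNA replication it was 2 of 8 (25%), near the genome's share, and all 8 of those genes stood higher in the overexpressor.

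HIK (AT1G18370, chr1:6319450-6324378, minus strand, 15 exons), the kinesin also called NACK1 that activates the cytokinesis MAP kinase cascade, had the highest fold change of the 10 genes. Its level was 11.8 and 11.9 RPKM in overexpressor plants 1 and 2, against 5.73 and 4.72 RPKM in Col-0 plants 1 and 2. The overexpressor plants lay close together and at least 2.06-fold above either Col-0 plant (log2 fold change 1.18 ± 0.13 SE, edgeR adjusted p = 0.0623, DESeq2 adjusted p = 3.00e-07). The adjustment in edgeR gave that same adjusted p to 681 genes. TES (AT3G43210, chr3:15190786-15196215, plus strand, 15 exons), the paralog NACK2 that is needed for cytokinesis after male meiosis, was at 4.08 and 4.38 RPKM in the overexpressor and at 3.08 and 3.03 RPKM in Col-0. Its groups did not overlap, and its fold change was the smallest of the 10 (log2 fold change 0.47 ± 0.11 SE, edgeR adjusted p = 0.0827, DESeq2 adjusted p = 0.0793). Per length, HIK stood at 2.89 and 2.72 times TES in overexpressor plants 1 and 2 and at 1.86 and 1.56 times TES in Col-0 plants 1 and 2, so the ratio itself was apart between genotypes. An exact permutation test of that ratio over 2 plants a group cannot go below a two-sided p of 0.333.

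POK1 and POK2, the kinesins that mark and guide to the division plane, are long genes. POK1 (AT3G17360, chr3:5935880-5946540, plus strand, 34 exons) was at 4.08 and 3.45 RPKM in overexpressor plants 1 and 2, against 1.91 and 1.83 RPKM in Col-0 plants (log2 fold change 1.01 ± 0.13 SE, edgeR adjusted p = 0.0623, DESeq2 adjusted p = 4.69e-05). The Col-0 plants agreed closely in this gene, and the spread lay within the overexpressor. POK2 (AT3G19050, chr3:6577724-6590253, plus strand, 37 exons) was at 5.89 and 5.31 RPKM in the overexpressor and at 3.56 and 2.85 RPKM in Col-0 (log2 fold change 0.81 ± 0.15 SE, edgeR adjusted p = 0.0668). Here the lower overexpressor plant was 1.49-fold above the higher Col-0 plant. POK2 stood above POK1 in all 4 plants, at 1.44 and 1.54 times in the overexpressor and 1.86 and 1.55 times in Col-0. Those ratios were lower in both overexpressor plants, narrowly so against Col-0 plant 2.

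PAKRP1 and PAKRP1L, kinesins of the phragmoplast midline that back each other up, were measured at unequal levels. PAKRP1L (AT3G23670, KINESIN-12B in the annotation, chr3:8519136-8525289, plus strand) was at 7.32 and 6.78 RPKM in overexpressor plants 1 and 2, against 3.74 and 2.95 RPKM in Col-0 plants 1 and 2. Both overexpressor plants were at least 1.81-fold above either Col-0 plant (log2 fold change 1.08 ± 0.16 SE, edgeR adjusted p = 0.0623). PAKRP1 (AT4G14150, chr4:8158436-8165214, minus strand), the lowest of the 10 genes per length, was at 2.59 and 2.27 RPKM in the overexpressor and at 1.37 and 1.34 RPKM in Col-0 (log2 fold change 0.84 ± 0.15 SE, edgeR adjusted p = 0.0642). PAKRP1L was the more abundant paralog in every plant, at 2.83 and 2.99 times PAKRP1 in the overexpressor and at 2.72 and 2.19 times in Col-0. The gene chosen as PAKRP2 (AT4G14330, chr4:8244053-8247494, plus strand), which the annotation used here calls only a P-loop nucleoside triphosphate hydrolase, was at 6.78 and 6.02 RPKM in the overexpressor and at 3.73 and 2.87 RPKM in Col-0 (log2 fold change 0.96 ± 0.18 SE, edgeR adjusted p = 0.0657).

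Shared sequence between paralogs was checked because reads that match several genes can be lost from counts. The coding sequences of PAKRP1 and PAKRP1L were 81.5% identical over aligned bases, those of HIK and TES 67.7% and those of POK1 and POK2 66.5%. The longest identical run between any pair of the 10 coding sequences was 44 bases, in PAKRP1 and PAKRP1L, against reads of 150 bases.

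KNOLLE (AT1G08560, SYP111 in the annotation, chr1:2709525-2711000, minus strand), the cytokinesis syntaxin of the cell plate, was the most abundant of the 10 genes. It stood at 23.3 and 20.6 RPKM in overexpressor plants 1 and 2, against 12.9 and 10.3 RPKM in Col-0 plants 1 and 2. The groups did not overlap (log2 fold change 0.92 ± 0.16 SE, edgeR adjusted p = 0.0642, DESeq2 adjusted p = 0.0010). In the annotation 464 of its 1386 exonic bases (33.5%) overlap the gene NPQ1, which lies on the other strand and makes an enzyme of the xanthophyll cycle, so the count of KNOLLE is uncertain. If no read from the overlap was counted, its level over the other 922 exonic bases was 35.0 and 31.0 RPKM in the overexpressor and 19.4 and 15.5 RPKM in Col-0. NPQ1 was at 53.2 and 55.6 RPKM in the overexpressor and at 64.7 and 50.3 RPKM in Col-0 (log2 fold change -0.08 ± 0.17 SE), with overlapping groups.

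PLE (AT5G51600, chr5:20960779-20964537, minus strand), the MAP65 protein that bundles antiparallel microtubules at the phragmoplast midline, was at 8.35 and 8.23 RPKM in overexpressor plants 1 and 2 and at 4.25 and 3.60 RPKM in Col-0 plants 1 and 2. Both overexpressor plants were at least 1.94-fold above either Col-0 plant (log2 fold change 1.08 ± 0.13 SE, edgeR adjusted p = 0.0623, DESeq2 adjusted p = 9.74e-06). Its relative MAP65-1, a bundler also used in interphase arrays, was at -0.04 ± 0.11 SE on the log2 scale, and PLE per length was 0.226 and 0.210 times MAP65-1 in the overexpressor against 0.108 and 0.0929 times in Col-0. EDE1 (AT2G44190, chr2:18272119-18274679, plus strand), a microtubule-binding relative of an augmin subunit, had the fewest counts of the 10, from 105 to 231 per library. It was at 2.88 and 2.41 RPKM in the overexpressor and at 1.96 and 1.51 RPKM in Col-0, the narrowest gap between the groups, at 1.23-fold (log2 fold change 0.61 ± 0.22 SE, edgeR adjusted p = 0.145).

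The order of levels per length was the same in both genotypes by their means. KNOLLE came first and HIK next, and neither overlapped the gene after it in either genotype. In overexpressor plants PLE, PAKRP1L, PAKRP2, POK2, TES, POK1, EDE1 and PAKRP1 followed, with the plants of PAKRP1L and PAKRP2 overlapping, as did those of TES and POK1 and those of EDE1 and PAKRP1. In Col-0 plants each of the genes from PLE to POK2 overlapped the next one in the order, as did POK1 and EDE1, so those neighbours did not differ beyond the spread between plants.

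**Figure D3:**
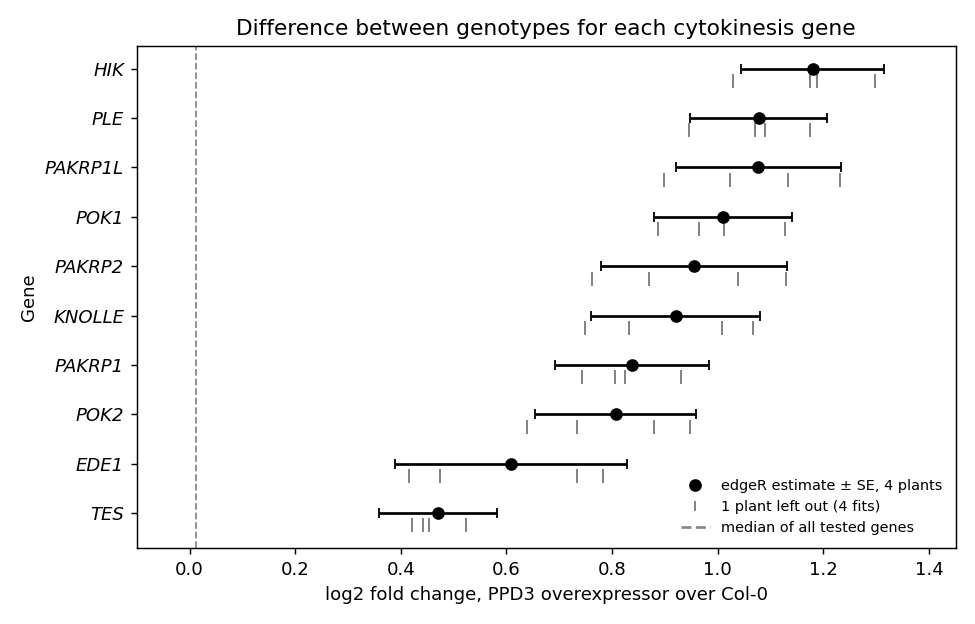
log2 fold change of each gene, overexpressor over Col-0 (points, edgeR estimate from 4 plants, bars SE), with grey ticks for the 4 fits that leave out 1 plant and a dashed line at the median of all tested genes, 0.01. Every estimate and every tick lies right of that line, from 0.42 for EDE1 without Col-0 plant 2 to 1.30 for HIK without Col-0 plant 1.

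Other genes of the pathway came from 10 lists, which describe each step by counts. As for the 10 genes, edgeR called no list gene at an adjusted p of 0.05 and limma with voom weights had no call in either direction, so the counts below are those at an adjusted p of 0.10 in edgeR. Beside the 9.56% of tested genes called higher by that rule, 11.2% were called lower.

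The kinase pathway list held the cascade driven by HIK and TES (ANP1, ANP2, ANP3, MKK6 and MPK4) and, beside it, the cytokinesis genes RUK and FU. Log2 fold changes were positive in 7 of 7 genes with a median of 0.75, and 5 were called higher and 0 lower. Those called were ANP1, ANP3 and MKK6 of the cascade, and RUK and FU outside it. The kinase FU, known as TIO or TWO-IN-ONE, was at 0.91 ± 0.11 SE and the MAP kinase kinase MKK6 at 1.01 ± 0.16 SE. MPK4, the last kinase of the cascade and also a regulator of immunity, was at 69.0 and 83.3 CPM in overexpressor plants 1 and 2, against 70.6 and 64.02 CPM in Col-0 plants 1 and 2 (0.18 ± 0.14 SE, edgeR adjusted p = 0.427). Its groups overlapped.

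Proteins that work with KNOLLE in vesicle fusion gave another picture. Of 7 such genes 1 was called higher and 0 lower, with a median of -0.18. The called one was the SNARE NPSN11, at 29.6 and 32.4 CPM in the overexpressor and at 18.2 and 18.3 CPM in Col-0 (0.77 ± 0.11 SE). KEU, the Sec1/Munc18 regulator of KNOLLE, stood at -0.41 ± 0.14 SE and both overexpressor plants were below both Col-0 plants (edgeR adjusted p = 0.133). KNOLLE per length was 0.747 and 0.773 times KEU in overexpressor plants 1 and 2, against 0.357 and 0.252 times in Col-0 plants 1 and 2. The general SNAREs VAMP721 and SYP71 were at 0.01 ± 0.11 SE and -0.20 ± 0.10 SE.

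Phragmoplast microtubule genes other than the 10 had 3 of 15 called higher and 0 lower, with a median of 0.12. MAP65-5 was at 1.08 ± 0.17 SE, MAP65-2 at 0.63 ± 0.13 SE and the gamma-tubulin TUBG1 at 0.55 ± 0.11 SE. None of the 8 augmin subunits was called. AUG8, the subunit related to EDE1 through the QWRF domain, was at 9.86 and 13.04 CPM in the overexpressor and at 15.7 and 13.44 CPM in Col-0 (-0.35 ± 0.19 SE, edgeR adjusted p = 0.266), and of the 3 QWRF relatives of EDE1, AUG8 among them, 0 were called. Division plane genes had 5 of 13 called higher and 0 lower, with a median of 0.20. Among them IQD8, an IQ-domain protein, was at 1.06 ± 0.16 SE and TANGLED (ATN), which with POK1 and POK2 marks the division plane, at 0.89 ± 0.19 SE.

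Of the cell plate membrane and wall genes 2 of 15 were called higher and 3 lower, with a median of -0.04. These counts stand near the shares of all tested genes, 9.56% called higher and 11.2% lower. The cellulose synthase-like CSLD5, which acts in the forming plate, was at 104 and 99.4 CPM in the overexpressor and at 53.2 and 42.2 CPM in Col-0 (1.09 ± 0.15 SE), and the cytokinesis dynamin DRP5A at 1.04 ± 0.13 SE. PATL1, a patellin that binds membrane lipids at the cell plate, was at 312 and 325 CPM in the overexpressor, against 813 and 899 CPM in Col-0 (-1.43 ± 0.15 SE). PATL2 was at -0.65 ± 0.10 SE and the dynamin DRP1E at -0.44 ± 0.11 SE.

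**Figure D4:**
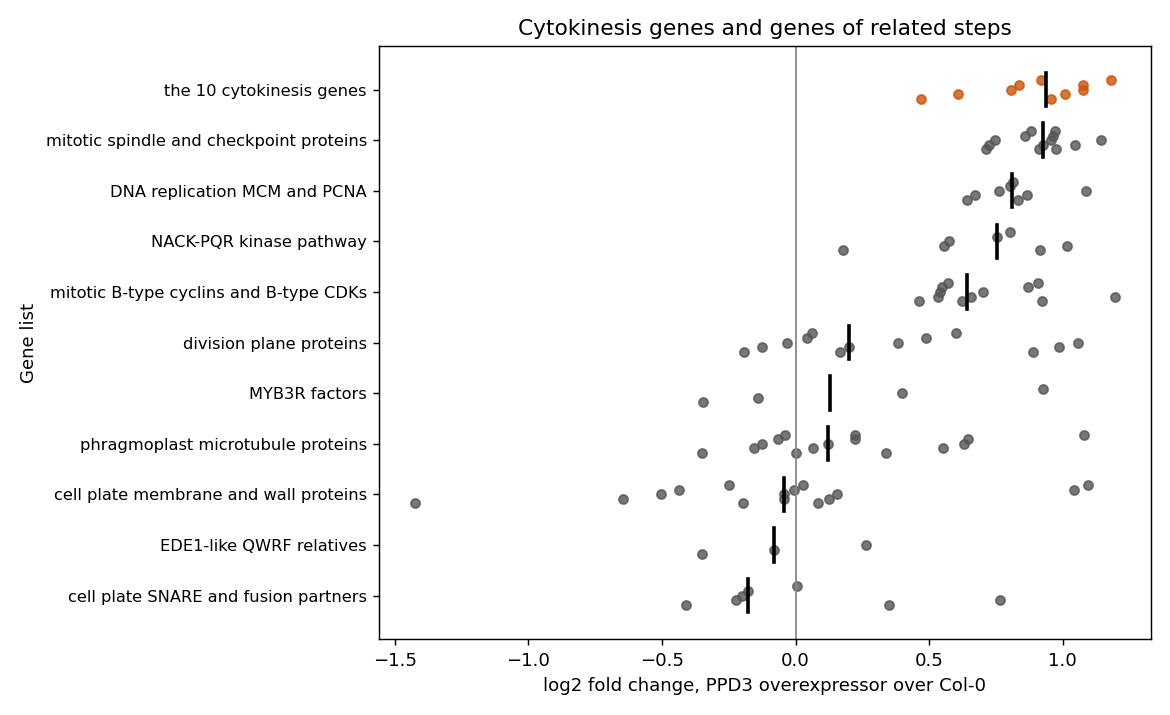
log2 fold change of each tested gene, overexpressor over Col-0 (points), in the 10 cytokinesis genes (orange) and in 10 lists of related genes (grey), with a black bar at each list's median. The 10 genes and the lists of the kinase pathway, spindle, B-type cyclins and CDKs, and DNA replication lie right of 0 throughout, while the other 6 lists straddle it.

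Genes of earlier cell cycle phases stood in the same direction. Spindle and checkpoint genes were called higher in 13 of 13, with a median of 0.93, and the kinesin ATK1 was at 0.93 ± 0.11 SE and the spindle assembly factor TPX2 at 0.96 ± 0.12 SE. B-type cyclins and B-type CDKs were called higher in 8 of 12 and MCM and PCNA genes in 8 of 8, with medians of 0.64 and 0.81. The mitotic cyclin CYCB1;1 was at 1.20 ± 0.14 SE and PCNA1, the replication clamp, at 1.09 ± 0.11 SE. Of the MYB3R factors, MYB3R4, an activator of mitotic genes, was at 26.0 and 24.4 CPM in overexpressor plants 1 and 2, against 14.1 and 12.4 CPM in Col-0 plants 1 and 2 (0.93 ± 0.12 SE). It was the 1 MYB3R gene of 4 called higher, and MYB3R3, which represses such genes, was at -0.14 ± 0.12 SE. Summed per length, the 10 cytokinesis genes were 0.801 and 0.791 times the B-type cyclin and CDK sum in overexpressor plants 1 and 2, against 0.683 and 0.653 times in Col-0 plants 1 and 2. Set against the MCM and PCNA sum they were 0.675 and 0.564 times in the overexpressor and 0.610 and 0.515 times in Col-0, so that ratio overlapped between genotypes.

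Markers of organs and cell types that divide, which samples taken at bolting could hold in unequal amounts, moved with the 10 genes in part. Stomatal lineage markers summed to 49.7 and 48.7 CPM in overexpressor plants 1 and 2, against 35.0 and 26.3 CPM in Col-0 plants 1 and 2, and 4 of 7 were called higher, with a median log2 fold change of 1.35. SPCH, which starts the lineage, was at 5.62 and 5.60 CPM in the overexpressor and at 1.89 and 1.32 CPM in Col-0, and EPF2, a signal of its early cells, was at 2.01 ± 0.24 SE. Floral organ markers summed to 28.3 and 23.0 CPM in overexpressor plants, against 18.1 and 9.22 CPM in Col-0 plants. All 8 had positive log2 fold changes, with a median of 0.89 beside the 0.94 of the cytokinesis genes, although edgeR called 0 of 8. In 5 both overexpressor plants were above both Col-0 plants, against 33.9% of all tested genes. For AP1 and LFY that gap was only 1.02-fold, and the groups of AP3, PI and SEP2 overlapped. Col-0 plant 1, the Col-0 plant with the higher level in all 10 cytokinesis genes, had the higher floral and stomatal sums. Its sum of spindle and checkpoint genes was higher as well, at 147 against 120 CPM in Col-0 plant 2. In the meiocyte and shoot meristem lists that follow its sum was the lower one. Markers of meiocytes and tapetum summed to 21.6 and 17.01 CPM in the overexpressor and to 11.2 and 11.7 CPM in Col-0, with 3 of 6 tested called higher and a median log2 fold change of 0.97. Of those tested, 5 were positive and ASY1 was negative. SYN1, MS1, TDF1 and MMD1 did not pass the filter, with at most 11 counts in any library, and TDF1 was lower in the overexpressor. DMC1, at 9.26 and 7.58 CPM in the overexpressor and 4.98 and 4.51 CPM in Col-0, made up much of the sum. So did TAM, at 6.16 and 2.80 CPM in the overexpressor and 1.65 and 2.50 CPM in Col-0. For TAM, overexpressor plant 2 was only 1.12-fold above Col-0 plant 2. Shoot meristem and boundary markers summed to 147 and 152 CPM in the overexpressor, against 166 and 178 CPM in Col-0. CLV1, at 73.9 and 73.0 CPM in the overexpressor and 81.2 and 82.5 CPM in Col-0, made up much of that sum. Of 10 tested, 1 was called higher and 2 lower, with a median log2 fold change of 0.24. Both overexpressor plants were above both Col-0 plants in 5 and below them in 5, against 33.9% and 33% of all tested genes. The part of these tissues in the level of the 10 genes was not tested.

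**Figure D5:**
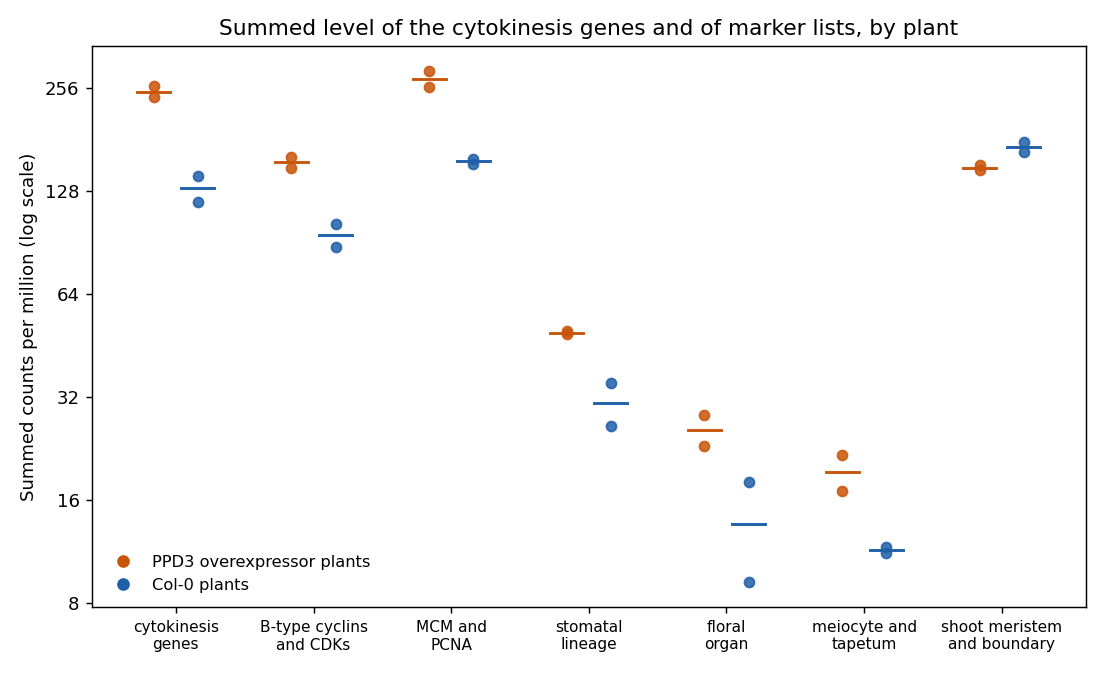
Summed CPM (log scale) of the cytokinesis genes and of 6 other lists, with a point for each plant, bars at the mean of 2 plants, overexpressor in orange and Col-0 in blue. Orange points lie above blue points in 6 of the 7 lists, and below them for shoot meristem and boundary markers.

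The genes outside the set whose profile over the 4 libraries came closest to the median profile of the 10, by Euclidean distance of centred log2 CPM among 17005 genes, were AT1G55200, AT5G23820, AT1G20060, AT1G65900 and AT5G37010. Their distances ran from 0.0166 to 0.0505, and they were picked for likeness in value. AT1G20060 is annotated as a microtubule motor of the ATP-binding family, as HIK and TES are, and stood at 2.95 and 2.61 RPKM in overexpressor plants 1 and 2, against 1.65 and 1.36 RPKM in Col-0 plants 1 and 2. AT5G37010 is annotated as a rho GTPase-activating protein, AT5G23820 as a lipid recognition protein and AT1G55200 as a kinase.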

How the data were processed

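Libraries of RNA from 4 individual plants, 2 per genotype, were made with a TruSeq RNA kit and sequenced as single reads of 150 bases, per the labels' protocols. The deposited files hold raw counts per gene, whole numbers that the authors had not normalized. TAIR10 and DESeq2 appear in the submitters' processing notes, while the sources used here do not give the aligner, the counting tool or its use of strand. Library sizes left out the rows without a gene: reads without a feature were 0.713% to 0.941%, ambiguous reads 3.67% to 4.18% and reads with several alignments 4.18% to 5.61% of all counted reads. Such reads can be missing from overlapping or near-identical genes.

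The whole table was fitted with edgeR 4.0.16 in R 4.3.3 (default filter, minimum count 10 and minimum total 15, TMM scaling, genotype only, quasi-likelihood F test, Benjamini-Hochberg over 19919 genes). The fit had 2 residual degrees of freedom and a prior of 2.36. SE is the log2 fold change divided by the square root of F. DESeq2 1.42.0 and limma 3.58.1 with voom weights were the other tests, and the scripts were tested on simulated data. CPM is TMM-scaled, and RPKM divides it by merged exon length. Gene models, names (32548 of 33977 rows matched by locus) and sequences came from RefSeq's TAIR10.1; no deposited file holds coordinates. Coding sequences, in place of the planned proteins, were aligned with Biopython 1.88.

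The 10 genes and the lists were chosen with earlier results of these data known. Named genes are the 10, list genes by call or smallest p, and the 5 closest profiles; further list genes were named after their values were seen. No protein sequence is shown. Plants with the same number are not stated to share anything, so the replicate number was no covariate.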

Additional observations from a re-analysis of the deposited data

How the results depend on the processing

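The log2 fold changes of the 10 genes were positive in every fit run (3 tools, 3 other scalings, 2 other filters, the replicate block, each plant left out). No member passed an adjusted p of 0.05 in any of them but DESeq2. The median over the 10 ran from 0.78 without Col-0 plant 2 to 1.04 without Col-0 plant 1, against 0.94 with all plants. With 1 plant left out, the lone plant is assumed to vary like the other genotype's, and the count of genes called lower was 0 in each such fit. Members called higher were 8 in DESeq2 and 9 at an adjusted p of 0.10. Genes called higher and lower over the whole table were 0 and 1 (the nitrilase gene NIT2, named after its value was seen), against 1708 and 1973 in DESeq2, 1904 and 2225 at an adjusted p of 0.10, and 3 and 10 with no filter. Genes called lower were 0 with limma, 0 with the filter of 5 CPM (which EDE1 did not pass) and 0 with the replicate block. The replicate block left 0 members called, with a lowest adjusted p of 0.148 among them, and the plant differences correlated at -0.304 over genes. A crossed replicate block, chosen after seeing the data, called 17 genes higher and 120 lower and 0 members. The cause of these moves was not tested. The share of member promoters with the MSA core was 70% within 200 bases before the start and 50% for the longer letters CNAACGG, against 17.4% and 5.52% of all promoters.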

Other observations

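Among shoot meristem genes, members stood apart from one another. The KNOX genes STM and KNAT1, which keep meristem cells undifferentiated, were at 11.9 and 14.1 CPM and at 10.03 and 17.8 CPM in overexpressor plants 1 and 2, against 23.2 and 27.3 CPM and 27.3 and 33.7 CPM in Col-0 plants 1 and 2. ANT, which promotes growth of young organs, was at 35.0 and 31.4 CPM in the overexpressor, against 18.8 and 17.7 CPM in Col-0. STM had a log2 fold change of -0.96 ± 0.15 SE, KNAT1 one of -1.13 ± 0.31 SE and ANT one of 0.86 ± 0.11 SE, and none passed edgeR at an adjusted p of 0.05. CLV3, a stem cell signal, had no count in any library.

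The meiotic genes SDS and DMC1 were at 1.46 ± 0.24 SE and 0.83 ± 0.18 SE on the log2 scale, while the meiotic axis gene ASY1 was at -0.46 ± 0.24 SE. SDS held 88 and 70 counts in overexpressor plants 1 and 2, against 26 and 29 counts in Col-0 plants 1 and 2. In the stomatal lineage FAMA, which acts in the last division and in guard cells, was at 0.01 ± 0.17 SE beside the higher values of SPCH and EPF2.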
